A study of Arabidopsis thaliana with 18 samples.

Results

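The class III peroxidase genes described here are 8 probe sets, each assigned to 1 gene, out of 13513 probe sets with 1 gene and 22746 probe sets in all on the Arabidopsis thaliana ATH1 array. The rule asks for a gene description, which the annotation used here does not hold, so the gene's names were used instead. Of the 8, 7 were taken because the gene's record in the reference annotation carries a peroxidase name. AT1G34510 was taken because the rule names its locus, although its record carries no peroxidase name. Ascorbate, glutathione and thioredoxin peroxidases were left out, and the rule itself uses no measured value. The reference table holds 15 such records, that of AT1G34510 included, and 7 of them have no probe set named with them in the platform annotation and were not analysed here. A further 12 loci from the lists of peroxidases have a probe set but a record that carries no peroxidase name. Unlike AT1G34510 they are not named in the rule and were not analysed here, so the 8 genes are not the whole family on the array.

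Class III peroxidases are secreted heme enzymes of plants that act in the cell wall and apoplast. With hydrogen peroxide they can cross-link wall phenolics, extensins and monolignols, which stiffens the wall, and under other conditions they release reactive oxygen species that loosen it. Root hairs grow at their tip, and the balance of wall loosening and stiffening behind the tip is known to bear on hair length.

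The arrays measured RNA of root hair cells, collected as GFP-positive protoplasts by fluorescence-activated sorting from roots of seedlings 5 days after germination (the text on the series' design speaks of nuclei). GTL1 and its closest homologue DF1 are trihelix transcription factors, and the study asked how gain and loss of each changes gene expression in root hairs. GTL1ox cells carried pEXPA7:GTL1-GFP and DF1ox cells carried pEXPA7:DF1-GFP, so that in these lines the fusion protein was itself the sorted signal. The gtl1df1 (gtl1-1df1-1), gtl1 (gtl1-1), df1 (df1-1) and WT cells carried pEXPA7:NLS-GFP, a nuclear GFP, and every genotype therefore had a transgene under the promoter of the root hair expansin gene EXPA7, which is active in hair cells and not in the whole root. There were 3 arrays per genotype and 18 in all, numbered as replicates by the labels. The study's methods speak of 3 biological replicates, and the labels do not name the cultures or plants behind each array. The p-values measure the spread between these arrays. Array values are on the log2 scale after gcRMA normalisation, a difference of 1 is a change of 2-fold, and the lowest value in the table was 2.22.

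Across all probe sets the arrays of 1 genotype correlated at r = 0.987 to 0.998. DF1 itself read 14.09 to 14.30 in DF1ox cells, 3.41 to 5.03 in gtl1df1, 8.38 to 8.83 in gtl1, 3.30 to 3.74 in df1 and 7.23 to 7.57 in WT, which follows the labels, and it also fell in GTL1ox cells, at 4.83 to 5.53. No probe set is named with GTL1 in the platform annotation, so the GTL1 labels were not checked in this way. Of the marker lists of root cell types, only the root hair expansins EXPA7 and EXPA18 were measured. EXPA7 averaged 12.90 to 13.27 in the 6 genotypes, and EXPA18 averaged 12.83 in GTL1ox cells and 13.95 to 14.28 in the other genotypes. No marker of another root cell type had a probe set whose record carries its name, so the presence of other cells was not checked. The bacterial control RNAs added before hybridisation split the arrays by genotype: BioB read 2.61 to 3.20 in the GTL1ox, DF1ox and WT arrays and 7.29 to 8.32 in the gtl1df1, gtl1 and df1 arrays. The controls also differed between genotypes on each side of this split: BioC read 7.92 to 8.26 in DF1ox, 6.91 to 7.01 in GTL1ox and 7.07 to 7.40 in WT, then 8.86 to 9.26 in gtl1df1, 9.24 to 9.78 in gtl1 and 9.80 to 9.96 in df1. The labels name no batch. Comparisons of a mutant with WT, of an overexpression line with gtl1df1 and the interaction cross the BioB split, and there the effect of genotype cannot be told apart from whatever moved the controls. This applies also to DF1ox against WT, GTL1ox against DF1ox and gtl1df1 against df1, where the BioC ranges did not overlap. In GTL1ox against WT the BioC ranges lay next to each other without overlap, and those of BioB, BioD and Cre overlapped. The BioD ranges of gtl1df1 (12.01 to 12.37) and gtl1 (12.38 to 12.80) also did not overlap, while those of BioB, BioC and Cre did. In these comparisons too the effect of genotype cannot be told apart from whatever moved BioC or BioD. In sorted bulk samples, fewer cells expressing a gene and less RNA per cell cannot be told apart.

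The 8 peroxidase genes fell into 2 kinds by their values. AT1G34510, AT5G66390 (PRX72), AT5G64120 (PRX71) and AT4G21960 (PRXR1) read more than 2-fold above the lowest value in all 3 arrays of at least 1 genotype, each with its own pattern over the genotypes. The other 4, Prx37, PRX52, PRX25 and PER36, were at or near the lowest value in nearly every array. A change against a genotype whose 3 arrays all lay within 2-fold of the lowest value is a lower limit and is written as "at least".

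**Figure D1:**
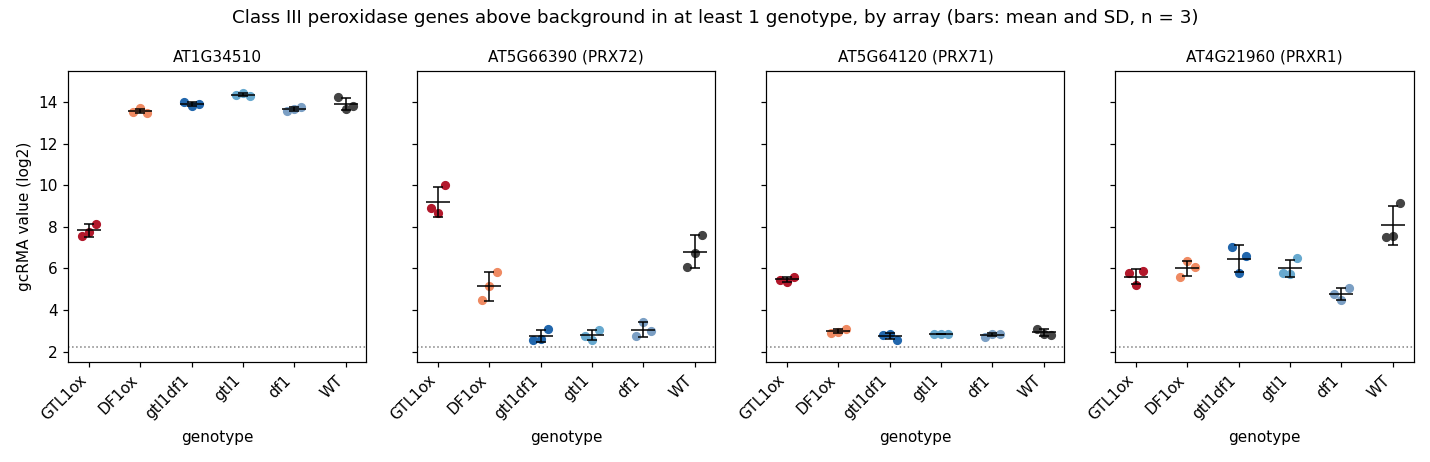
gcRMA values (log2, vertical axis) of the 4 peroxidase genes that read above background in at least 1 genotype, by genotype (horizontal axis). Each point is 1 array, the bars give the mean and SD of 3 arrays, and the dotted line marks the lowest value of the table, 2.22. AT1G34510 is low in GTL1ox alone, PRX71 is above the dotted line by more than 2-fold in GTL1ox alone, the means of PRX72 run from GTL1ox through WT and DF1ox down to the mutants, and PRXR1 is highest in WT.

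AT1G34510 had the largest fall of the 8 genes in GTL1ox cells. Its GTL1ox arrays read 7.57, 7.77 and 8.14, the DF1ox arrays 13.51, 13.69 and 13.48, and the WT arrays 14.22, 13.64 and 13.83. The mutants read 13.98, 13.79 and 13.91 in gtl1df1, 14.36, 14.43 and 14.28 in gtl1, and 13.56, 13.68 and 13.75 in df1. All 3 GTL1ox arrays lay far below every other array, while the remaining 15 arrays spanned 13.48 to 14.43. Against WT the difference was -6.07 ± 0.15 (SE, n = 3 arrays each), 67.3-fold lower in GTL1ox (limma, adjusted p = 2.78e-11), and 99.96% of all probe sets changed by less in this comparison. It was also 53.3-fold lower in GTL1ox than in DF1ox cells (log2 difference -5.74, limma, adjusted p = 8.46e-11). The added controls differed between these 2 genotypes too, with BioD at 10.38 to 10.62 in GTL1ox and 11.27 to 11.90 in DF1ox. Against gtl1df1 it was 67.1-fold lower in GTL1ox (log2 difference -6.07, limma, adjusted p = 2.1e-11). EXPA18, a root hair expansin gene, fell by 1.45 on the log2 scale in GTL1ox against WT (limma, adjusted p = 1.11e-09), and EXPA7 did not pass the test (+0.15, adjusted p = 0.129). The part of these markers in the fall of AT1G34510 was not tested.

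In the other genotypes AT1G34510 moved little. It was 13.56 ± 0.12 in DF1ox and 13.90 ± 0.30 in WT (SD, n = 3 each), and the difference of -0.34 did not pass the test (limma, adjusted p = 0.218). The gtl1df1 cells differed from WT by -0.004 ± 0.15 (SE), and df1 cells by -0.24, neither past the threshold. The gtl1 arrays lay just above all WT arrays, by 0.46 on average, and this difference did not pass the test (limma, adjusted p = 0.0696). It passed when only the brighter probe sets were tested (adjusted p = 0.0339) or WT replicate 1, the highest WT array, was left out (log2 difference 0.62, adjusted p = 0.0115).

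PRX72 (AT5G66390), a peroxidase of lignin formation, was highest in GTL1ox cells and near the lowest value in the 3 mutants, with WT and DF1ox between. GTL1ox cells had 8.90, 8.67 and 10.03, DF1ox cells 4.46, 5.13 and 5.85, and WT cells 6.07, 6.74 and 7.62. In gtl1df1 it read 2.58, 2.63 and 3.10, in gtl1 2.76, 2.58 and 3.06, and in df1 2.76, 3.44 and 2.999. The GTL1ox arrays lay above all others, the WT arrays came next, the DF1ox arrays lay below all WT arrays, and the 9 mutant arrays lay below all of these and close to the lowest value of the table.

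In the 2 overexpression lines PRX72 differed from WT in opposite directions, and DF1ox differed from both GTL1ox and WT in the added controls. It rose 5.24-fold in GTL1ox cells against WT (log2 difference 2.39 ± 0.45, SE, limma, adjusted p = 0.00131), and it fell 3.17-fold in DF1ox cells against WT (log2 difference -1.66 ± 0.45, limma, adjusted p = 0.039). The direct comparison of GTL1ox with DF1ox gave 16.6-fold (log2 difference 4.05, limma, adjusted p = 2.88e-05), and every GTL1ox array exceeded every DF1ox array. The fall in DF1ox was close to the threshold. Its adjusted p was 0.154 without WT replicate 3, the highest WT array (log2 difference -1.26), 0.0711 without WT replicate 2, 0.134 without DF1ox replicate 1 and 0.0985 without DF1ox replicate 2.

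In each mutant PRX72 was close to the bottom of the scale, in comparisons that cross the split of the added control RNAs. It was at least 16.4-fold lower in gtl1df1 than in WT (log2 difference -4.04, limma, adjusted p = 6.38e-05) and at least 16.1-fold lower in gtl1 than in WT (log2 difference -4.01, limma, adjusted p = 0.000201). In df1 the log2 difference from WT was -3.75 (limma, adjusted p = 0.000225), or 13.4-fold lower, and with 2 of the 3 df1 arrays within 2-fold of the lowest value this too may be a lower limit. Between the mutants the differences were -0.03 for gtl1df1 against gtl1 and -0.29 for gtl1df1 against df1, each smaller than its SE of 0.45. These arrays were near the lowest value, so a further fall in gtl1df1 was not measurable there. Against gtl1df1, PRX72 was at least 86.1-fold higher in GTL1ox cells (limma, adjusted p = 1.88e-07) and at least 5.19-fold higher in DF1ox cells (limma, adjusted p = 0.00174). Without WT replicate 3 the differences of gtl1df1, gtl1 and df1 from WT were -3.63, -3.61 and -3.34, all still past the threshold. With the spread estimated from the compared arrays alone, the calls in gtl1 (adjusted p = 0.0664) and df1 (adjusted p = 0.0532) were lost, and so was the call in GTL1ox against WT (adjusted p = 0.0778) and in DF1ox against WT (adjusted p = 0.344). The SD of PRX72 was 0.78 in WT, 0.73 in GTL1ox and 0.69 in DF1ox, against 0.24 to 0.35 in the mutants near the lowest value. The fit of all 18 arrays used 1 spread for every genotype, so the SE of 0.45 also rests on the mutant arrays.

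PRX71 (AT5G64120), which is known to be induced by wall damage and to limit growth, was above the lowest range in GTL1ox cells alone. The GTL1ox arrays read 5.47, 5.35 and 5.60, against 2.92, 2.92 and 3.11 in DF1ox and 3.11, 2.86 and 2.81 in WT. All 9 mutant arrays lay between 2.58 and 2.86. Only the 3 GTL1ox arrays of the 18 exceeded the lowest value by more than 2-fold, and the same value of 2.86 recurred in 7 other arrays, so the differences among the other genotypes are not read. The rise in GTL1ox was at least 5.82-fold against WT (log2 difference 2.54 ± 0.09, SE, limma, adjusted p = 1.34e-09), at least 5.61-fold against DF1ox (adjusted p = 2.1e-09) and at least 6.58-fold against gtl1df1 (adjusted p = 3.88e-10). PRX71 and PRX72 both rose in GTL1ox cells, but PRX72 was above the lowest range in DF1ox and WT cells too.

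PRXR1 (AT4G21960) was highest in WT and lower in each of the other 5 genotypes. The GTL1ox arrays read 5.76, 5.21 and 5.86, the DF1ox arrays 5.60, 6.35 and 6.05, and the WT arrays 7.51, 7.54 and 9.15. The mutants read 7.05, 5.77 and 6.61 in gtl1df1, 5.78, 5.73 and 6.48 in gtl1, and 4.77, 4.50 and 5.07 in df1. No array of any other genotype reached the lowest WT array, WT replicate 3 stood well above the remaining WT arrays, and the df1 arrays were the lowest of all.

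In GTL1ox cells PRXR1 was 5.49-fold lower than in WT (log2 difference -2.46 ± 0.44, SE, limma, adjusted p = 0.000969), and in DF1ox cells it was 4.19-fold lower than in WT (-2.07, adjusted p = 0.0122). The GTL1ox and DF1ox arrays overlapped, and their difference of -0.39 did not pass the test (limma, adjusted p = 0.722). Among the mutants, across that split of the arrays, the fall against WT was 9.76-fold in df1 (log2 difference -3.29, limma, adjusted p = 0.000465), 4.19-fold in gtl1 (-2.07, adjusted p = 0.00949) and 3.01-fold in gtl1df1 (-1.59, adjusted p = 0.0278). PRXR1 was thus lower than in WT in the overexpression lines and in the mutants alike, and all 5 comparisons share the WT arrays. Without WT replicate 3 the differences were -1.91 in GTL1ox (adjusted p = 0.00241), -1.52 in DF1ox (0.035), -1.05 in gtl1df1 (0.0954), -1.52 in gtl1 (0.0263) and -2.74 in df1 (0.000852), so that the call in gtl1df1 was lost. That call was also lost without gtl1df1 replicate 2 (adjusted p = 0.126) or replicate 3 (adjusted p = 0.0579). With the spread taken from the compared arrays alone, every PRXR1 call against WT was lost, with adjusted p = 0.0631 in GTL1ox, 0.239 in DF1ox, 0.304 in gtl1df1, 0.209 in gtl1 and 0.0767 in df1. The SD of PRXR1 was 0.94 in WT and 0.29 to 0.65 in the other genotypes, and the fit of all arrays pooled these.

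Within the mutants, PRXR1 was 3.24-fold higher in gtl1df1 than in df1 (log2 difference 1.70 ± 0.44, SE, limma, adjusted p = 0.0169), with no overlap of the arrays. This call was lost without gtl1df1 replicate 1 (log2 difference 1.41, adjusted p = 0.0782), gtl1df1 replicate 3 (adjusted p = 0.057) or df1 replicate 2 (adjusted p = 0.0679), and with the spread of the compared arrays alone (adjusted p = 0.0673). The gtl1df1 and gtl1 arrays overlapped, with a difference of 0.48 (limma, adjusted p = 0.728). Against gtl1df1, the overexpression lines did not pass the test either, with -0.87 in GTL1ox and -0.48 in DF1ox.

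**Figure D2:**
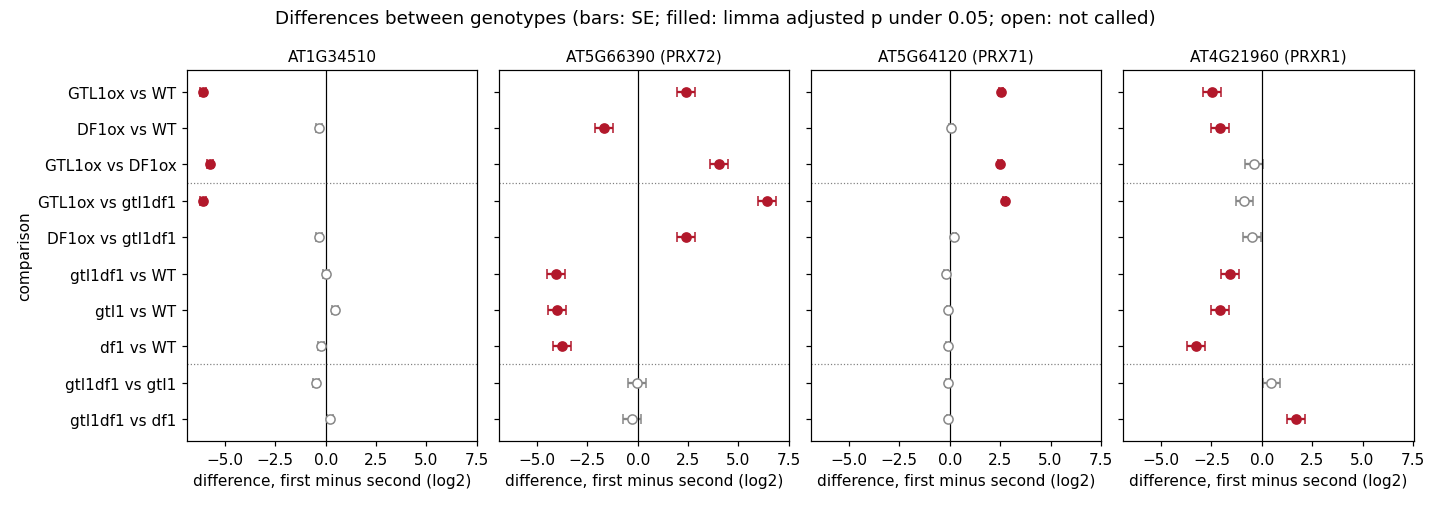
Differences in gcRMA value (log2, horizontal axis, first genotype minus second) of the 4 peroxidase genes above background, for 10 comparisons of 2 genotypes (vertical axis). Bars give the moderated SE of the limma fit, filled points have an adjusted p under 0.05, open points do not, and the dotted lines separate comparisons within the overexpression and WT arrays (top), across the BioB split of the added control RNAs (middle) and within the mutants (bottom). PRX72 has filled points on both sides of 0, and PRXR1 has filled points on the negative side in all 5 comparisons with WT.

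The remaining 4 genes gave few values to describe. Prx37 (AT4G08770), whose overexpression is known to dwarf plants, read 2.22 to 2.24 in 17 arrays and 5.08 in GTL1ox replicate 3. Its difference of 0.96 between GTL1ox and WT rests on that array and did not pass the test (limma, adjusted p = 0.267). PRX52 (AT5G05340), a lignin peroxidase, was at 2.41, 2.22 and 2.92 in GTL1ox cells, against 2.22 in all 3 WT arrays. Its difference of 0.30 did not pass the test (limma, adjusted p = 0.0957). It passed without GTL1ox replicate 2 (log2 difference 0.44, adjusted p = 0.00556), although every one of its 18 arrays lay within 2-fold of the lowest value. PRX25 (AT2G41480), another peroxidase of lignification, was at the lowest value in 16 arrays and at 3.13 in gtl1 replicate 1 and 3.20 in df1 replicate 2. PER36 (AT3G50990), known for its part in the release of seed coat mucilage, was at the lowest value in all 18 arrays. Values at the lowest level carry no order, so no difference among genotypes is read for PRX25 and PER36.

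**Figure D3:**
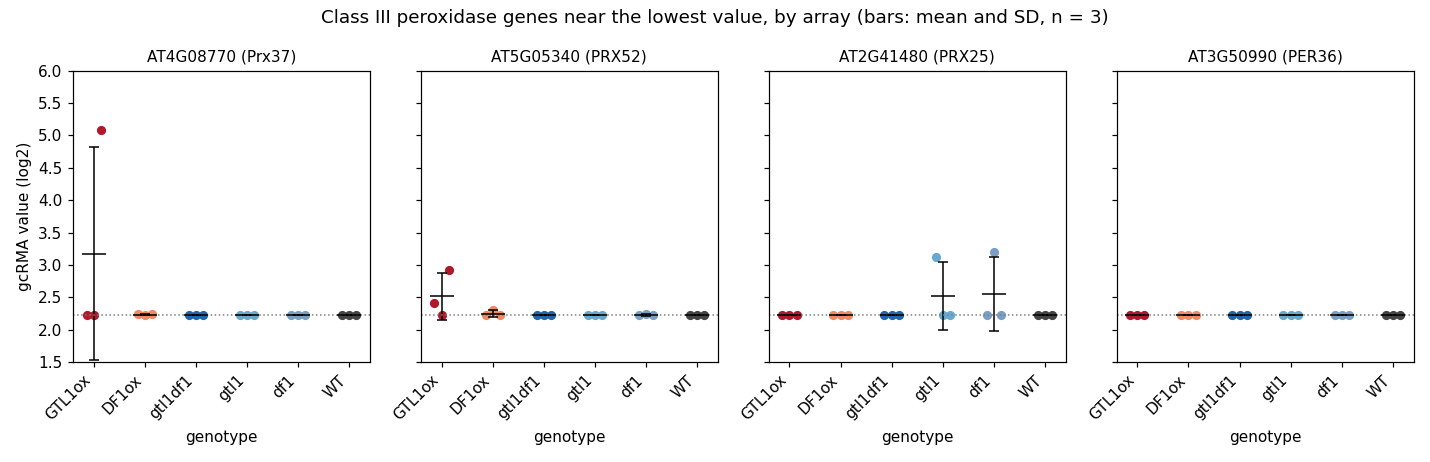
gcRMA values (log2, vertical axis) of the 4 peroxidase genes near the lowest value of the table (dotted line, 2.22), by genotype (horizontal axis). Each point is 1 array, and the bars give the mean and SD of 3 arrays. A single GTL1ox array of Prx37 reached 5.08, and PER36 did not leave the lowest value in any array.

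Of the 8 genes, GTL1ox against WT called 4, with PRX72 and PRX71 higher and AT1G34510 and PRXR1 lower, where 24.5% of all probe sets were called. DF1ox against WT called 2, PRX72 and PRXR1, both lower, where 8.04% of all probe sets were called and 4.18% were called lower. GTL1ox against DF1ox called 3, PRX72 and PRX71 higher and AT1G34510 lower, against 20.5% of all probe sets. The same 3 genes were called in the same directions in GTL1ox against gtl1df1 (29.3% of all probe sets), and PRX72 alone was called, higher, in DF1ox against gtl1df1 (20.8%). In each comparison of a mutant with WT the 2 called genes were PRX72 and PRXR1, both lower. Of all probe sets, 14.7% were called in gtl1df1 against WT (7.92% lower), 11.8% in gtl1 against WT (6.54% lower) and 17.6% in df1 against WT (2279 of the 22746 lower). No gene of the 8 was called in gtl1df1 against gtl1 (4.71% of all probe sets), where AT1G34510 alone had an unadjusted p under 0.05 (log2 difference -0.46, adjusted p = 0.107), and PRXR1 alone was called in gtl1df1 against df1 (17.4%). The median difference over the 8 genes was 0.15 in GTL1ox against WT and 0 in DF1ox against WT, beside 0 over all probe sets in both.

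For PRXR1 the difference of gtl1df1 from gtl1 was unlike that of df1 from WT, and only the latter crosses the BioB split. The effect of losing DF1 there cannot be told apart from whatever moved the controls. The test compared the difference of gtl1df1 from gtl1 with that of df1 from WT. For PRXR1 the difference of gtl1df1 from gtl1 was 0.48, that of df1 from WT was -3.29, and the interaction was 3.76 ± 0.62 (SE, limma, adjusted p = 0.00168). For PRX72 these values were -0.03, -3.75 and 3.72 ± 0.63 (limma, adjusted p = 0.00193). In gtl1 cells PRX72 was already near the lowest value, where a fall like that of df1 from WT could not be read, so its interaction does not show that the effect of losing DF1 differed. PRXR1 read at least 4.50 in all 18 arrays, more than 2-fold above the lowest value. The interaction was called for these 2 genes of the 8, and for 15.6% of all probe sets. It combines mutant arrays with WT arrays, which lie on either side of the split of the added control RNAs. Without WT replicate 3 the interaction was 3.22 for PRXR1 (adjusted p = 0.00156) and 3.31 for PRX72 (adjusted p = 0.00387).

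**Figure D4:**
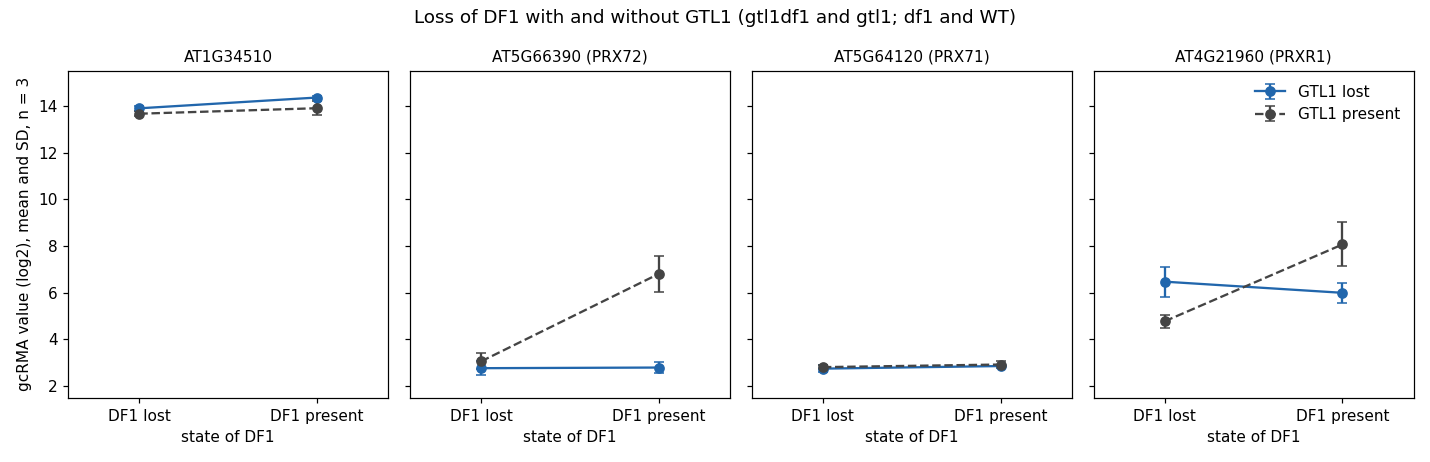
gcRMA values (log2, vertical axis, mean and SD of 3 arrays) of the 4 peroxidase genes with DF1 lost and present (horizontal axis), in cells without GTL1 (solid line, gtl1df1 and gtl1) and with GTL1 (dashed line, df1 and WT). The lines are far from parallel for PRX72, whose 2 values without GTL1 lie near the lowest value of the table, and for PRXR1, where they cross.

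By their known roles, 5 of the 8 genes belong to a list of lignin and barrier peroxidases (PRX72, PRX52, PRX71, PRX25 and PRXR1) that was written with 13 entries. In GTL1ox against WT, 2 of these 5 rose and 1 fell, and in DF1ox against WT and in gtl1df1 against WT none rose and 2 fell. The shares over all probe sets were 14.9% higher and 9.65% lower in GTL1ox against WT. They were 3.86% higher and 4.18% lower in DF1ox against WT, and 6.77% higher and 7.92% lower in gtl1df1 against WT. Prx37 was the single measured gene of 6 entries of a list of defence peroxidases. Of the listed 11 root hair peroxidases, 10 NADPH oxidases, 14 extensins and related wall proteins and 9 laccases and monolignol enzymes, none had both a probe set and a record with its name, and none was analysed here. UPB1, a bHLH factor known to repress peroxidase genes in the root, read 10.53, 10.91 and 10.45 in GTL1ox, 11.00, 10.98 and 10.86 in DF1ox, and 10.05, 10.37 and 10.32 in WT. It was higher in DF1ox than in WT by 0.70 (limma, adjusted p = 0.0163), while the difference of 0.39 between GTL1ox and WT did not pass the test (limma, adjusted p = 0.105). Against gtl1df1 it was higher by 0.62 in GTL1ox (limma, adjusted p = 0.009) and by 0.93 in DF1ox (limma, adjusted p = 0.000821). The relation of UPB1 to the peroxidase genes was not tested.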

How the data were processed

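The ATH1 arrays were normalised by the authors with gcRMA, and the deposited log2 values were used as they stand. No software setting or version of that step is given in the sources read here. Labelling took a further amplification cycle in some arrays, which the labels do not identify. The 18 columns were matched to samples by label, and the number of columns without a sample was 0. Dropping the 64 Affymetrix controls left 22746 probe sets, and 27.9% of their values were within 0.01 of the lowest, 2.22. Names came from the platform annotation and the reference gene table. The annotation gave 1 gene to 13513 probe sets, several to 503 and none to 8730.

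With limma 3.58.1 in R 4.3.3, a linear model with 1 term per genotype took in all 18 arrays, and 11 comparisons, 10 of a pair and the interaction, were tested two-sided with Benjamini-Hochberg adjustment over all probe sets. A call is an adjusted p under 0.05. Figures were drawn with matplotlib 3.10.9. The fit was tested on simulated data. The members, gene lists and comparisons were chosen with earlier results of these data known. The naming rule took AT5G66390 and AT1G34510 in every genotype, members called without overlap between arrays, and measured members of the 3 peroxidase lists; all 8 members are described.

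Alternatives were quantile normalisation, a fit of the compared arrays alone, a filter on dim probe sets, a replicate block, trended robust moderation, an unadjusted p under 0.05 with a change above 2-fold, and leaving out each array. Same-number arrays deviated together (correlations 0.101, 0.208 and 0.279) for gtl1df1 and df1, the one compared pair with all correlations above 0.1. The numbers come from the labels.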

Additional observations from a re-analysis of the deposited data

Results flagged for a closer look

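Of all probe sets, 15.6% passed the threshold for the limma interaction of the loss of DF1 with the state of GTL1. The interaction passed it for 2 of the 8 peroxidase genes. It sets WT arrays against mutant arrays, which differ in the added control RNAs, and the genotype cannot be told apart from that difference. For AT4G21960 (PRXR1) the log2 difference of gtl1df1 from gtl1 was 0.48 and that of df1 from WT was -3.29, an interaction of 3.76. For AT5G66390 (PRX72) the difference of gtl1df1 from gtl1 was -0.03 and that of df1 from WT was -3.75, an interaction of 3.72. As gtl1 and gtl1df1 both read near the lowest value there, a fall like that of df1 from WT could not be read, and this value does not show that the effect differed.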

How the results depend on the processing

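Of 22 calls of a gene in a comparison, 12 were kept under every alternative run, and none of these 22 differences changed sign. Some differences that were not called did change sign, such as that of AT1G34510 in gtl1df1 against WT. It ran from -0.13 to 0.16 on leaving out 1 array. With quantile normalisation DF1ox against WT called 1 gene, as PRX72 had an adjusted p of 0.0548. A fit of only the arrays compared has fewer arrays to estimate the spread and called 2 genes in GTL1ox against WT, 0 in DF1ox against WT, 1 in gtl1df1 against WT, 0 in gtl1 against WT, 0 in df1 against WT and 0 in gtl1df1 against df1, and the calls lost were those of PRXR1 and, except in gtl1df1 against WT and against df1, PRX72. Leaving out 1 array gave 4 to 5 genes in GTL1ox against WT, 1 to 2 in DF1ox against WT, 1 to 2 in gtl1df1 against WT, 2 to 3 in gtl1 against WT, 2 to 2 in df1 against WT, 3 to 4 in GTL1ox against DF1ox and in GTL1ox against gtl1df1, 1 to 1 in DF1ox against gtl1df1, 0 to 0 in gtl1df1 against gtl1, 0 to 1 in gtl1df1 against df1 and 2 to 2 in the interaction. These leave-one-out counts are not set beside shares over all probe sets and are not read as a result about the 8 genes. The filter on dim probe sets left 4 of the 8 genes and added AT1G34510 in gtl1 against WT. That made 3 genes, where 28.7% of the probe sets kept were called. The replicate block, trended robust moderation and the 2-fold rule changed none of 88 results each. With the replicate block, GTL1ox against WT still called 4 genes and gtl1df1 against df1 still called 1. Across the 15 pairs of genotypes, same-number arrays correlated at -0.375 to 0.279, and 2 pairs, of which gtl1df1 with df1 was compared, had every correlation above 0.1. With 3 arrays per genotype and many values at the lowest level, small differences in dim genes could not be measured.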

Other observations

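GTL1ox replicate 3 was the highest GTL1ox array in 6 of the 6 peroxidase genes whose GTL1ox arrays spread by more than 0.01, against 29.8% of the 15155 probe sets with such a spread. The RNA quality measure of the arrays, the 3′ minus 5′ signal of the control transcripts over 6 probe set pairs, averaged 1.79 ± 0.09 in GTL1ox, 1.96 ± 0.07 in DF1ox, 2.08 ± 0.02 in gtl1df1, 2.04 ± 0.06 in gtl1, 2.21 ± 0.07 in df1 and 1.99 ± 0.20 in WT (SD, n = 3 each), lowest in GTL1ox and highest in df1.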
